A study of Mus musculus with 6 samples.

Results

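The genes described here are receptors and mediators through which nerves and amines act on group 2 innate lymphoid cells (ILC2s): Nmur1, Calcrl, Ramp1, Ramp3, Vipr2, Calca and Tph1. They were listed by name for their known roles, and all 7 were found among the 18478 genes measured. None of the 7 encodes an adrenergic receptor.

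ILC2s, lymphocytes of tissues that lack antigen receptors, secrete type 2 cytokines, and in the lung they sit close to airway nerves. Neuromedin U, released by cholinergic neurons, activates them through NMUR1, a receptor coupled to Gq and calcium. CGRP, which neurons, pulmonary neuroendocrine cells and ILC2s themselves can release, acts through CALCRL paired with RAMP1. That receptor signals through Gs and cyclic AMP and is known mostly for restraining ILC2s, whereas VIP, which acts through VIPR2, promotes cytokine release.

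RNA was sequenced from ILC2s sorted from mouse lung in 3 libraries named WT and 3 named CB2 KO, and the comparison addresses what loss of cannabinoid receptor 2 (CB2, gene Cnr2) does to the ILC2 transcriptome. Both groups were BALB/c animals 6 weeks old. Both had been given 1 µg of recombinant IL-33 by the nose on each of 3 occasions, and in both the sorted cells were then cultured for 24 h with 10 ng/mL each of IL-2 and IL-7, cytokines that sustain ILC2s. Every value is therefore from ILC2s already exposed to IL-33, with no group that was not. The labels give the knockout by name only, without the allele or the cells it affects, and leave unsaid whether replicates are separate animals. The p-values therefore measure only how these samples spread, possibly for technical reasons.

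Depth ran from 17141698 to 21621008 estimated counts per library. Cnr2 was at 9.32, 17.4 and 15.8 CPM (counts scaled to library size with TMM factors) in WT and at 9.24, 1.604 and 3.84 CPM in CB2 KO. The library labelled CB2 KO replicate 1 thus held as much Cnr2 as the lowest WT library. It also lay apart from the other 5 on principal component 1, which held 37.6% of the variance, and listed the fewest genes with a count (15021, against 15650 to 16526). Results are given without it wherever it decides them. All 17 measured ILC2 markers had counts in every library, with summed levels of 15430 to 16760 CPM in WT against 15580 to 17970 CPM in CB2 KO. The cytokine gene Il5 alone made up 7343 ± 470 CPM of this in WT and 9021 ± 1070 in CB2 KO (SD, n = 3). Of the 17 markers 12 values were negative and 5 positive, and 0 passed the threshold defined below. Summed macrophage and monocyte markers (8 measured) were at 12.2 to 59.2 CPM in WT against 158 to 171 CPM in CB2 KO, with 4 of 4 tested markers positive and 0 past the threshold. Chil3, at 0.559 to 47.5 CPM in WT and 108 to 143 CPM in CB2 KO, made up most of the sum in each CB2 KO library. Lyz2 was at 1.12 to 2.55 CPM in WT and 10.4 to 21.2 in CB2 KO (edgeR adjusted p = 0.0693). Cd68 overlapped between the groups, at 8.71 ± 1.96 CPM in WT and 9.63 ± 3.09 in CB2 KO. Csf1r had 0, 30 and 0 counts in WT and 0, 116 and 111 in CB2 KO. Itgam had 0 counts in all 3 WT libraries and 0, 170 and 19 in CB2 KO. Siglecf and Mrc1 were at 0 in 5 of the 6 libraries, with 18 counts in CB2 KO replicate 3 and 88 in CB2 KO replicate 2 respectively. The part of RNA of such cells in the results below was not tested.

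Expressed per kilobase of exon, which allows genes to be compared, the 7 genes spanned more than a 10-fold range in WT. Nmur1 stood highest at 110.2 ± 7.01 CPM per kilobase (SD, n = 3 here and in all group values), followed by Ramp1 at 47.5 ± 4.87. Calcrl at 25.9 ± 1.45 and Tph1 at 25.2 ± 6.94 came next, with overlapping libraries. Below them lay Vipr2 at 9.58 ± 1.154, and then Calca at 6.95 ± 0.318 and Ramp3 at 6.60 ± 0.851, whose libraries overlapped. In CB2 KO the order was Nmur1 at 69.0 ± 4.99, Ramp1 at 40.5 ± 3.01, Tph1 at 32.6 ± 1.54, Calcrl at 32.3 ± 8.55, Vipr2 at 8.69 ± 2.56, Calca at 6.44 ± 2.93 and Ramp3 at 4.16 ± 2.11 CPM per kilobase. There the libraries of Tph1 and Calcrl overlapped, as did those of each neighbouring pair among the last 3. Nmur1 and Ramp1 thus kept the first and second place in both groups.

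None of the 7 passed the threshold of an adjusted p of 0.05 between CB2 KO and WT (quasi-likelihood test of edgeR, Benjamini-Hochberg adjusted over 14084 genes). Of all tested genes 0.107% did, 0.0426% higher and 0.0639% lower in CB2 KO. Before adjustment, 1 of the 7 had a p below 0.05, against 8.60% of all tested genes. In Nmur1 and Ramp1 every CB2 KO library lay below every WT library, a pattern seen in 7.20% of all tested genes. No member had all CB2 KO libraries above all WT libraries, which 6.91% of tested genes did. The median log2 fold change of the 7 was -0.14, with 2 values positive and 5 negative, and over all tested genes it was 0.00.

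**Figure D1:**
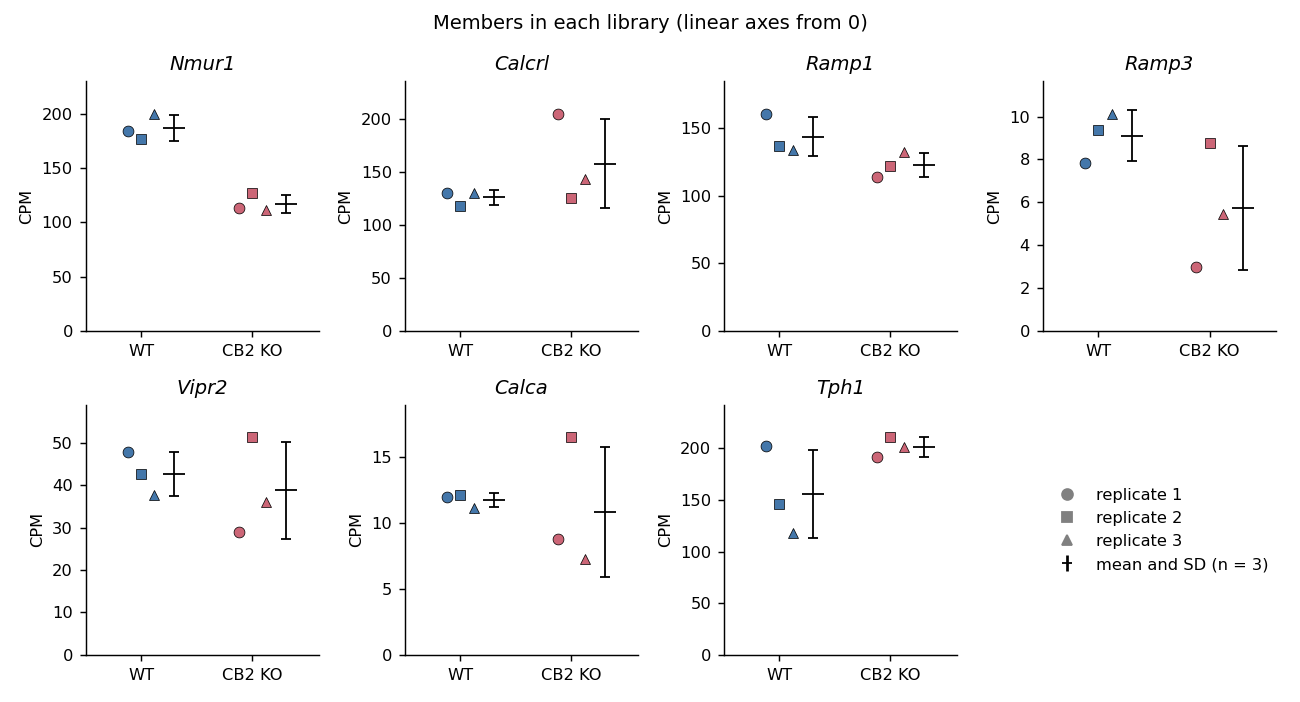
Level of each gene in each library, in CPM, with points for the 3 WT and 3 CB2 KO libraries and bars for the group mean and SD. Nmur1 libraries lay at 177 to 199.9 CPM in WT against 111 to 127 CPM in CB2 KO, whereas Tph1 overlapped only through WT replicate 1 at 202.3 CPM.

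**Figure D2:**
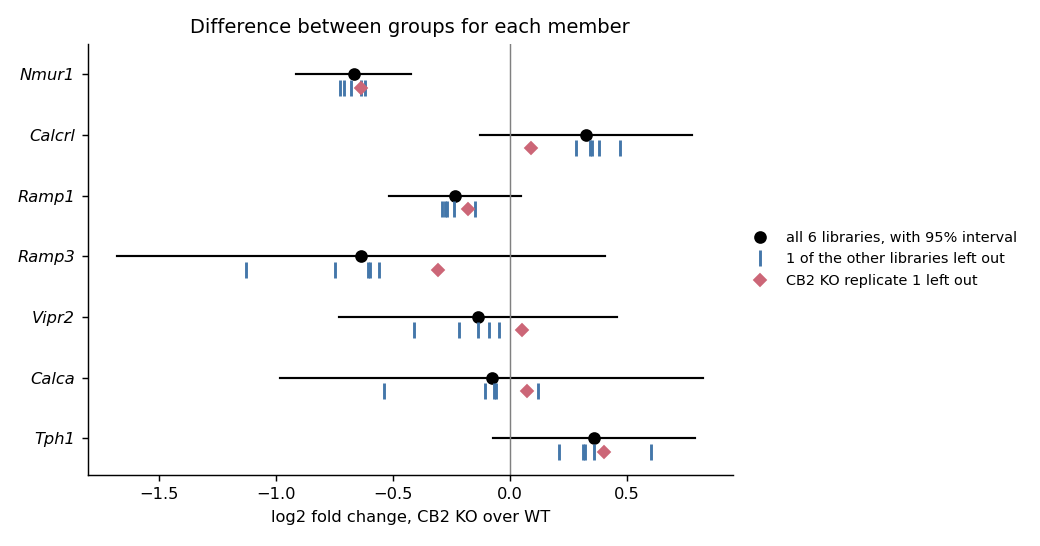
Log2 fold change of CB2 KO over WT for the 7 genes, with 95% intervals from edgeR. The interval of Nmur1, -0.91 to -0.42, lies below 0 and those of the other 6 include 0.

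Nmur1 (ENSMUSG00000026237) lies on chromosome 1 from 86386303 to 86426228, minus strand, in mm10. It encodes the neuromedin U receptor of ILC2s. The 3 WT libraries held 184, 177 and 199.9 CPM, from 3949, 3622 and 3531 counts. The 3 CB2 KO libraries held 113, 127 and 111 CPM, from 2275, 2685 and 1913 counts. The groups were separated by a gap wider than the range of either group. Group means were 187 ± 11.9 CPM in WT against 117 ± 8.46 CPM in CB2 KO, a mean 37.4% lower in CB2 KO. On the log2 scale the difference was -0.67 (SE 0.10), with an unadjusted p of 0.000296 from edgeR, the 40th smallest of all genes, and an adjusted p of 0.104. DESeq2 put the same difference past the threshold (adjusted p = 1.79e-08), as it did for 2.73% of all genes to which it gave an adjusted p, and the other 15 alternatives to the edgeR test gave adjusted p-values from 0.0680 to 0.525. The difference was -0.64 with the library labelled CB2 KO replicate 1 left out. Of the 17 ILC2 markers, 8 likewise had every CB2 KO library below every WT library, as 7.20% of all tested genes did. Il5 alone had every one above, as 6.91% of all tested genes did, and the rest overlapped. The 8 included Icos at 552 ± 58.3 and 431 ± 32.4 CPM, Klrg1 at 156 ± 13.8 and 114 ± 17.1 CPM, Gata3 at 1057 ± 55.2 and 964 ± 28.2 CPM and Id2 at 1651 ± 40.4 and 1508 ± 69.0 CPM in WT and CB2 KO. The part of this in the Nmur1 values was not tested. In these bulk samples, fewer cells carrying a transcript and less of it per cell cannot be told apart.

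Starts of Nmur1 and Ramp1 are shown because these were the members whose groups did not overlap. RefSeq (GRCm38.p6) lists 2 starts for Nmur1, and the window of the first in its table is printed, chr1:86389312-86389611 on the minus strand. The Ramp1 window is chr1:91179572-91179871 on the plus strand. Each runs from 250 bases before to 50 bases after the start. Capitals mark GATA words (AGATA or TGATA followed by A or G) and TGACG, the core of the cyclic AMP response element, read on both strands.
Nmur1 start window: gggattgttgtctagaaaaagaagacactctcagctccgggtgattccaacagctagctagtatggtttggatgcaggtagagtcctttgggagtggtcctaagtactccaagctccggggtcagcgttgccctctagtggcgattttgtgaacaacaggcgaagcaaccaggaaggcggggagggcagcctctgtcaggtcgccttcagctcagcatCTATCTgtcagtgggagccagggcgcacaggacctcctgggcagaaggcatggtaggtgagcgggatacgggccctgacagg
Ramp1 start window: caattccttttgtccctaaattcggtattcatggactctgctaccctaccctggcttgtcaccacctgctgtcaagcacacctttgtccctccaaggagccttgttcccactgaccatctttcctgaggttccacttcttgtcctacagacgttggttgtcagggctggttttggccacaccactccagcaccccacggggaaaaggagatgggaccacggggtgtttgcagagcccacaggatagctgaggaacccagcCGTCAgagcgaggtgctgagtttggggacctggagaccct
The Nmur1 window held CTATCT, the reverse complement of a GATA word, beginning 32 bases before the start. The window of the second start held TGATAA beginning 133 bases before it and CTATCA, a reverse complement, beginning 33 bases after it. The Ramp1 window held CGTCA, the reverse complement of TGACG, beginning 11 bases after the start. GATA words occur in 29.8% of the 32851 windows of the RefSeq table and in 4 of the 9 windows of the 7 genes. TGACG occurs in 20.8% of all windows and in 4 of the 9. No marked matches overlap. These are letter matches only.

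CALCRL is the shared receptor chain for CGRP and adrenomedullin, and the partner decides the ligand: RAMP1 gives the CGRP receptor, while RAMP2 and RAMP3 favour adrenomedullin. Calcrl (chromosome 2, 84330626 to 84425411, minus strand) was at 130.4, 118 and 130.2 CPM in WT against 205, 125 and 143 CPM in CB2 KO. The CB2 KO mean, 158 ± 41.7 CPM against 126 ± 7.08 in WT, included the highest value of all in the library labelled CB2 KO replicate 1. CB2 KO replicate 2 lay inside the WT range. The log2 difference was 0.32 (SE 0.19, edgeR adjusted p = 0.692) with that library and 0.09 without it. Pecam1, an endothelial marker, was lowest in that same library, at 7.75 CPM against 19.8 to 27.5 CPM in the others. Of 13 endothelial and stromal markers 2 were measured, and the second, Acta2, was at 0 in 5 of the 6 libraries. The part of endothelial RNA in the Calcrl values was not tested.

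Ramp1 (chromosome 1, 91179822 to 91225196, plus strand) was at 160.3, 137 and 133.3 CPM in WT against 114, 122 and 131.8 CPM in CB2 KO. The groups did not overlap, but the highest CB2 KO and the lowest WT library nearly touched. Means were 143 ± 14.7 and 122 ± 9.10 CPM, a log2 difference of -0.24 (SE 0.12, 95% interval -0.52 to 0.05, edgeR adjusted p = 0.641). It was -0.15 without WT replicate 1.

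Ramp3 (chromosome 11, 6658521 to 6677475, plus strand) was at 7.83, 9.36 and 10.1 CPM in WT against 2.98, 8.78 and 5.46 CPM in CB2 KO, from 60 to 192 counts. CB2 KO replicate 2 fell within the WT range, whereas the other 2 CB2 KO libraries lay below it. The log2 difference of -0.64 (SE 0.44, edgeR adjusted p = 0.749) was -0.31 with the library labelled CB2 KO replicate 1 left out and -1.13 without CB2 KO replicate 2. A pseudogene on the opposite strand, Gm11978, shares 101 of the 1380 exon bases of Ramp3. Reads that lie within these shared bases cannot be told apart if strand was not used. Ramp2 was the lowest of the partners, at 0.559, 0.585 and 1.13 CPM in WT against 2.53, 1.37 and 0.233 CPM in CB2 KO, from 4 to 51 counts, where 3 counts correspond to 0.140 to 0.174 CPM.

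Per exon length, Ramp1 made up 90.3, 87.0 and 85.7% of Ramp1 plus Ramp3 in WT and 94.6, 86.4 and 91.7% in CB2 KO. Ramp1 was thus the main partner transcript in every library. Its mean share was 87.7 ± 2.39% in WT and 90.9 ± 4.15% in CB2 KO, a difference of 3.197 percentage points (exact two-sided permutation p = 0.3, where the smallest possible is 0.1). It was 1.352 points with the library labelled CB2 KO replicate 1 left out and 5.44 points without CB2 KO replicate 2. Ramp1 over Calcrl per length, a ratio added after values had been seen, was 1.99, 1.87 and 1.65 in WT and 0.896, 1.57 and 1.49 in CB2 KO. It was below every WT value in each CB2 KO library, and below 1 only in the library labelled CB2 KO replicate 1, where Calcrl was highest and Ramp1 lowest. The difference of -0.519 had an exact two-sided permutation p of 0.1, the smallest that 3 against 3 can give, and was -0.308 without that library.

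**Figure D3:**
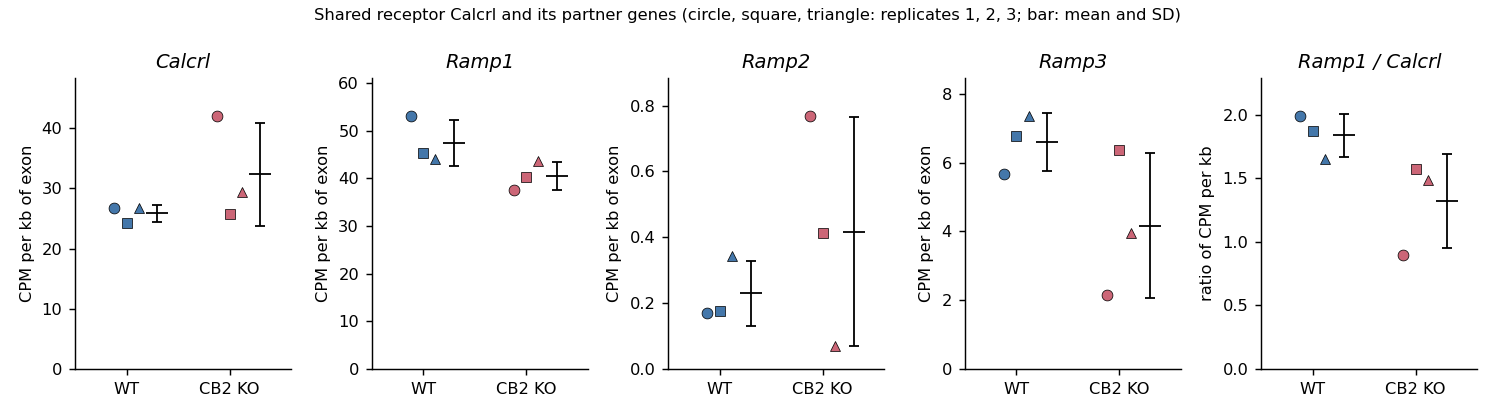
Calcrl and its partner transcripts in each library, in CPM per kilobase of exon. Ramp1 exceeded Calcrl in all libraries except the one labelled CB2 KO replicate 1 (37.6 against 42.0), and Ramp2 stayed at or below 0.768 CPM per kilobase.

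Vipr2 (chromosome 12, 116077726 to 116146261, plus strand), the VIP receptor coupled to Gs, was at 47.9, 42.7 and 37.6 CPM in WT against 28.9, 51.3 and 36.2 CPM in CB2 KO. The lowest and the highest library were both CB2 KO, so the WT range lay inside that of CB2 KO. The log2 difference was -0.14 (SE 0.25, 95% interval -0.73 to 0.46, edgeR adjusted p = 0.921), and 0.05 with the library labelled CB2 KO replicate 1 left out. Vipr1, the other VIP receptor, had 4 counts in WT replicate 2, 72 in CB2 KO replicate 2 and 0 in the other 4 libraries, and did not pass the filter on low counts.

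Calca (chromosome 7, 114631478 to 114636357, minus strand) encodes both CGRP and calcitonin through alternative last coding exons. Gene counts do not tell the products apart, so the exon parts that differ are shown, from GENCODE M21 transcripts on mm10. The CGRP part is chr7:114632443-114632599 and the calcitonin part is chr7:114633605-114633785, both on the minus strand. Capitals mark the bases of the mature peptide, 37 codons for CGRP and 32 for calcitonin.
Calca CGRP part: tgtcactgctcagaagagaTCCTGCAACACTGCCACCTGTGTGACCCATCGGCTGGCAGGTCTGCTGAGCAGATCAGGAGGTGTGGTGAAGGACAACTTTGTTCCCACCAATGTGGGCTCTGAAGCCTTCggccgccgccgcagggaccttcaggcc
Calca calcitonin part: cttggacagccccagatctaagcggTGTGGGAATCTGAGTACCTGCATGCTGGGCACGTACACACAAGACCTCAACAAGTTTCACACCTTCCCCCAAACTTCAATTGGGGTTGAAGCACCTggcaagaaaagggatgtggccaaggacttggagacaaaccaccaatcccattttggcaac
Calca was at 11.9, 12.1 and 11.1 CPM in WT against 8.79, 16.5 and 7.27 CPM in CB2 KO. The WT libraries lay close together and the CB2 KO libraries fell on either side of them. The WT coefficient of variation was 4.57%, below the 6.55% that counting alone gives at this depth, and in CB2 KO it was 45.5%. Means were 11.7 ± 0.535 and 10.8 ± 4.93 CPM, a log2 difference of -0.08 (SE 0.38, 95% interval -0.98 to 0.83, edgeR adjusted p = 0.972). Its sign turned when the library labelled CB2 KO replicate 1 (0.07) or CB2 KO replicate 3 (0.12) was left out. Neuroendocrine and epithelial markers, of which 10 of 15 were measured, summed to 69.6 to 175 CPM in WT against 58.0 to 84.0 CPM in CB2 KO. Syp, a vesicle protein gene of neuroendocrine cells, had 0, 58 and 53 counts in WT and 0, 0 and 23 in CB2 KO. A 0 was common at such counts in these libraries. Uchl1, which neuroendocrine cells also express, was at 24.4, 34.4 and 25.0 CPM in WT and 32.1, 32.2 and 30.1 CPM in CB2 KO. The part of neuroendocrine RNA in the Calca values was not tested.

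Tph1 (chromosome 7, 46644641 to 46672537, minus strand) encodes the tryptophan hydroxylase that starts serotonin synthesis outside the brain, in activated ILC2s and also in mast cells. It was at 202.3, 146 and 118 CPM in WT against 191, 210.4 and 201.4 CPM in CB2 KO. The CB2 KO libraries were tightly grouped, and all of them exceeded WT replicates 2 and 3 while WT replicate 1 lay among them. Means were 155 ± 42.8 and 201.1 ± 9.51 CPM, a log2 difference of 0.36 (SE 0.18, 95% interval -0.07 to 0.79, edgeR adjusted p = 0.643). The value was 0.60 without WT replicate 1 and 0.21 without WT replicate 3, and neither passed the threshold. Of 17 mast cell and basophil markers, 15 were measured and 13 tested, with 11 positive, 2 negative and 0 past the threshold. Their summed level was 70.3, 55.8 and 46.0 CPM in WT against 140.3, 81.5 and 133 CPM in CB2 KO, so its order over the libraries was that of Tph1 within WT and the opposite within CB2 KO. Of the 13 tested, 3 had every CB2 KO library above every WT library and 0 had every one below. Tpsb2, a mast cell tryptase and 1 of these 3, had the smallest adjusted p of the list (0.0860, edgeR). It was at 1.46 to 3.31 CPM in WT against 15.7 to 32.3 CPM in CB2 KO. Cpa3 overlapped between the groups, at 10.8 to 20.5 CPM in WT and 14.3 to 27.7 CPM in CB2 KO. So did Cma1, at 6.58 to 21.1 CPM in WT and 12.7 to 30.4 CPM in CB2 KO. Ms4a2 was at 0 in 5 libraries and Mcpt4 in 4. The part of mast cell RNA in the Tph1 values was not tested.

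The other genes of these pathways were taken from 8 lists with 234 entries, of which 128 were measured and 106 tested. Of these 106, 0 passed the threshold in either direction by edgeR, 7 had an unadjusted p below 0.05 with higher and 7 with lower values in CB2 KO, and the median log2 fold change was -0.08. DESeq2 put 7 of the 111 list genes to which it gave an adjusted p past the threshold, against 409 of all 14970 such genes. In 9 of the 106 all CB2 KO libraries lay below WT (7.20% of all tested genes), and in 5 all lay above (6.91%).

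**Figure D4:**
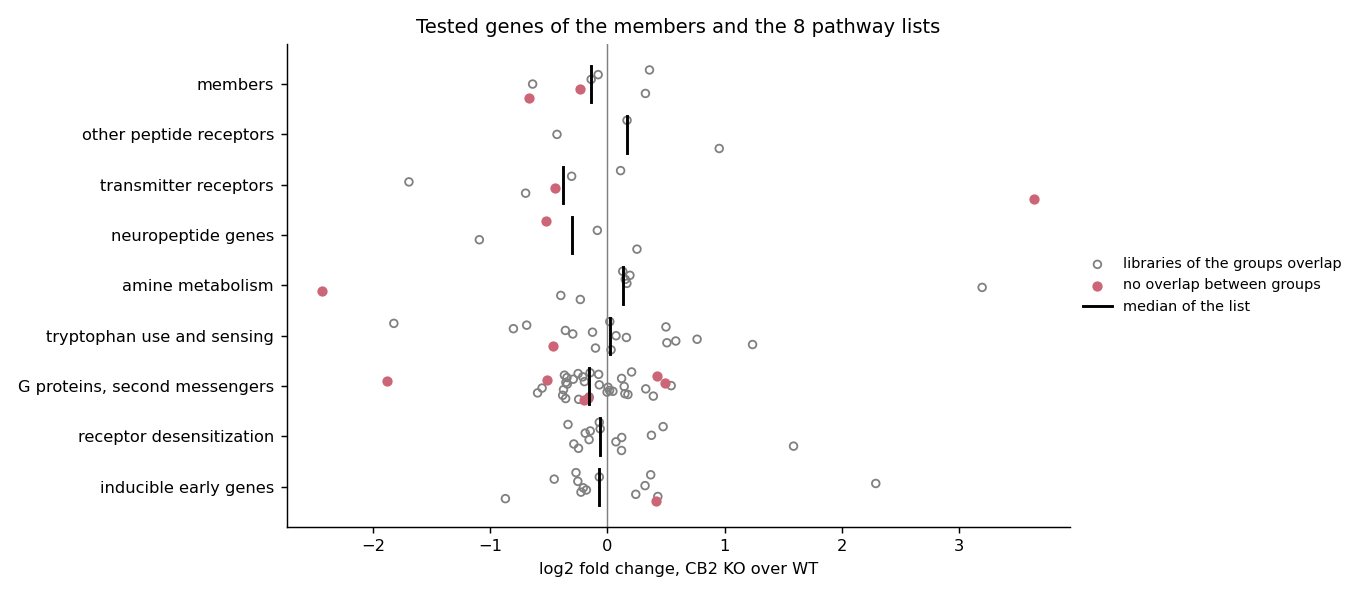
Log2 fold change of CB2 KO over WT for tested genes of the 7 members and the 8 lists, with filled points where the groups do not overlap and a bar at the list median. Chrnb1 and Egr3, each at 0 in a whole group, are left out as points, and the medians of all tested genes of a list lie between -0.38 and 0.17.

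Among 13 measured transmitter receptors, 8 were tested. Adra1b, an α1-adrenergic receptor gene, was at 0, 0 and 0.623 CPM in WT against 4.72, 1.32 and 0.930 CPM in CB2 KO (edgeR adjusted p = 0.550). Htr1b, a serotonin receptor gene, was the most abundant of the list, at 23.2, 20.3 and 27.0 CPM in WT against 19.4, 18.1 and 13.1 CPM in CB2 KO (log2 -0.45, SE 0.27, edgeR adjusted p = 0.692). Its groups did not overlap. Chrnb1, a nicotinic receptor subunit gene, was at 5.96, 0.780 and 2.38 CPM in WT against 0 in all 3 CB2 KO libraries. With 0 set to 3 counts per library, its level was 19.6-fold lower there (edgeR adjusted p = 0.470, DESeq2 0.000237). It was 10.2-fold lower without WT replicate 1. These folds are not lower bounds, because a 0 was common at such counts. In single libraries, 13.2 to 30.3% of genes with a mean of 10 to under 100 counts were at 0.

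Of 10 measured genes of other peptide receptors 3 were tested, and 0 had groups that did not overlap. Over all tested genes 7.20% lay wholly below WT and 6.91% wholly above. Crcp, a component of CGRP receptor signalling, had means of 56.4 ± 18.6 and 41.4 ± 4.57 CPM (edgeR adjusted p = 0.705). Of 6 measured neuropeptide genes 4 were tested. Penk, the enkephalin precursor gene, was the most abundant, at 35.3, 32.7 and 18.5 CPM in WT against 21.2, 31.9 and 54.4 CPM in CB2 KO, with overlapping groups. Nmb, which encodes neuromedin B, was at 10.7, 12.7 and 9.68 CPM in WT against 7.40, 7.69 and 8.08 CPM in CB2 KO. These groups did not overlap (log2 -0.53, SE 0.32, edgeR adjusted p = 0.704).

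Genes that make, move and break down amines had 11 of 28 entries measured and 9 tested. Maob, the monoamine oxidase gene that degrades amines, had the smallest adjusted p of all 8 lists (0.290, edgeR). It was at 26.4, 28.9 and 30.6 CPM in WT against 0, 9.20 and 6.63 CPM in CB2 KO. Every CB2 KO library lay far below WT, with a log2 difference of -2.43 (SE 0.54), and -1.82 with the library labelled CB2 KO replicate 1 left out, where it was listed at 0. Maob was not among the 7 list genes that DESeq2 put past the threshold. Gch1 and Qdpr, which make and recycle the cofactor of tryptophan hydroxylase, had means of 54.9 ± 5.77 and 61.5 ± 9.60 CPM and of 81.5 ± 8.32 and 88.5 ± 13.8 CPM in WT and CB2 KO respectively, with overlapping groups. Hdc, the histidine decarboxylase gene of mast cells and basophils, had 0, 18 and 0 counts in WT and 0, 146 and 19 counts in CB2 KO (edgeR adjusted p = 0.664), with overlapping groups.

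All 17 measured genes of tryptophan uptake, other use and sensing were tested, and 9 values were positive and 8 negative. Slc7a8, a transporter gene for large neutral amino acids, was at 786, 843 and 879 CPM in WT against 488, 655 and 681 CPM in CB2 KO. The groups did not overlap, and the log2 difference was -0.46 (SE 0.12, edgeR adjusted p = 0.383, DESeq2 0.00678). It was -0.32 with the library labelled CB2 KO replicate 1 left out. Slc7a5, which encodes another such transporter, was at 349 ± 44.2 and 356 ± 64.5 CPM. Its partner chain gene Slc3a2 was at 754 ± 61.3 and 704 ± 52.1 CPM, and both overlapped between the groups.

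Downstream of the receptors, 36 of 40 measured genes of G proteins and second messenger enzymes were tested, with 13 positive and 23 negative values and a median of -0.16. Gnas, which encodes the Gs α subunit shared by the CGRP and VIP receptors, was at 928, 1007 and 943 CPM in WT against 867, 782 and 852 CPM in CB2 KO (log2 -0.20, SE 0.06, edgeR adjusted p = 0.446). Of the tested cyclic AMP phosphodiesterase genes in this list, Pde3b alone had a positive value and the rest were negative. Pde7a was at 98.9, 96.1 and 90.3 CPM in WT against 57.9, 70.8 and 72.4 CPM in CB2 KO (log2 -0.51, SE 0.14, edgeR adjusted p = 0.389), whereas Pde3b was at 94.2, 74.4 and 70.8 CPM in WT against 125, 108 and 105 CPM in CB2 KO (log2 0.49, SE 0.15, edgeR adjusted p = 0.452). Pde4d was low, at 7.50 ± 2.85 and 2.09 ± 1.82 CPM. In all 4 of these genes the groups did not overlap, and DESeq2 put Gnas, Pde7a and Pde3b past the threshold. Of the 36 tested genes, 4 lay wholly below WT and 2 wholly above, against 7.20% and 6.91% of all tested genes. Prkar1a, the regulatory subunit gene of protein kinase A, was at 873 ± 42.1 and 883 ± 69.2 CPM.

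Over all tested genes, 6.91% had all CB2 KO libraries above WT and 7.20% had all below, the shares beside which the next 2 lists stand. Receptor desensitization genes, such as the receptor kinase gene Grk2 and the arrestin gene Arrb2, had 14 of 14 measured genes tested and 0 with groups that did not overlap. Grk2 was at 339 ± 17.6 CPM in WT against 368 ± 77.8 CPM in CB2 KO, and Arrb2 at 142 ± 13.8 and 127 ± 8.84 CPM. Of 15 tested early genes inducible by cyclic AMP or calcium, 2 had all CB2 KO libraries above WT and 0 had all below. Crem, a cyclic AMP response modulator gene, was at 86.8, 105 and 105 CPM in WT against 141, 131 and 121 CPM in CB2 KO (log2 0.41, SE 0.13, edgeR adjusted p = 0.452, DESeq2 0.0407). Egr3, an early growth response gene, was at 0 in all 3 WT libraries and at 3.83, 0.661 and 1.69 CPM in CB2 KO. With 0 set to 3 counts per library it was 13.5-fold higher (edgeR adjusted p = 0.452, DESeq2 0.00156), again not a lower bound. That value was 7.72-fold with the library labelled CB2 KO replicate 1 left out. Areg, an ILC2 product gene that is also inducible, was at 95.03 ± 7.89 and 79.0 ± 19.6 CPM with overlapping groups.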

How the data were processed

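RNA of lung ILC2s was sequenced in 6 libraries, 3 WT and 3 CB2 KO by their titles. The authors deposited an estimated count per gene and library, made with Partek's expectation-maximization counting (per the file headers), which shares out reads that fit several genes. The submitters' processing notes name Partek, the build mm10, CASAVA 1.8.2 and STAR (version written as 3.5.3). The strand setting was not given in the sources used here. The authors also deposited a normalized signal, used only in an alternative, equal to the estimated count after adding 1, over 1 factor for each library.

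Estimated counts were rounded and tested with edgeR 4.0.16 (R 4.3.3) over all 6 libraries: TMM factors, filterByExpr, glmQLFit (legacy=FALSE, robust=TRUE), glmQLFTest and a Benjamini-Hochberg threshold of 0.05. The filter left 14084 of 18478 genes, all 7 members among them. The code was tested on simulated data. Levels per kilobase used exon lengths from GENCODE M21, and the deposited coordinates of all 7 members equal that annotation. Ranges of 3 against 3 libraries were compared in CPM. At 17141698 to 21621008 counts per library, 3 counts are 0.140 to 0.174 CPM, a limit for counting error only. No 2 libraries agreed within sampling noise (lowest chi-square over degrees of freedom 31).

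Alternatives were other scalings (DESeq2 size factors, upper quartile, library size), no filter, a mean count of at least 100, DESeq2 1.42.0, limma-voom and limma on the normalized signal (limma 3.58.1), legacy=TRUE, the replicate number as a block, and leaving out each library. Leaving out libraries for the ratio of Ramp1 to Calcrl and for the folds of Chrnb1 and Egr3 against 3 counts was added after the data were seen. Named genes were the members, Cnr2, up to 4 genes of each pathway list with the smallest p and 3 with the highest CPM, leading markers and markers at 0, and the genes nearest to each member in profile. Some genes that this rule selects are not reported here. Icos, Klrg1, Gata3, Vipr1, Syp, Acta2, Csf1r, Itgam, Siglecf, Mrc1, Ms4a2, Mcpt4 and Gm11978 are named in addition, chosen after their values were seen. The members and lists were chosen with earlier results of these data known.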

Additional observations from a re-analysis of the deposited data

How the results depend on the processing

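The number of genes past the threshold, 15, became 35 with a mean count of at least 100 (fewer genes tested), 409 with DESeq2 (cause not tested) and 3 to 8 when 1 library was left out. It was 13 to 17 under the other alternatives apart from the replicate block. Of the 7 members, 0 passed the threshold under any alternative except DESeq2, which called 1, Nmur1. Of the pathway genes, 0 passed except with DESeq2, which called 7. Replicate numbers did not pair the libraries: same-numbered libraries had correlated deviations of 0.074, 0.031 and 0.020, not every library correlated best with its own number, and with the replicate block 3 genes and 0 members passed.

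When libraries were left out, log2 differences ran from -0.73 to -0.62 for Nmur1, 0.09 to 0.47 for Calcrl, -0.29 to -0.15 for Ramp1, -1.13 to -0.31 for Ramp3 and 0.21 to 0.60 for Tph1, all of 1 sign. Vipr2 (-0.41 to 0.05) and Calca (-0.54 to 0.12) changed sign, with 0.05 for Vipr2 and 0.07 for Calca without CB2 KO replicate 1, and 0.12 for Calca without CB2 KO replicate 3. Among 39 other named genes, 15 of 613 values reversed. These were Mc5r (-2.33 with limma-voom, -1.92 on the normalized signal, -0.15 without WT replicate 2, and -3.50 to 0.81 over the libraries left out) and Grp (0.10 with limma-voom, 0.11 on the normalized signal, 0.09 without CB2 KO replicate 2, and -0.47 to 0.50 over the libraries left out, the highest without WT replicate 1). They also were Penk (-0.14 without CB2 KO replicate 3, range to 0.52), Grk2 (-0.07 without CB2 KO replicate 1, range to 0.22), Slc7a5 (-0.07 without WT replicate 1 and -0.13 without CB2 KO replicate 1), Prkar1a (-0.02 without WT replicate 2 and -0.04 without CB2 KO replicate 2, range to 0.08) and Klf6 (0.01 without WT replicate 1). For all reversals the cause was not tested. With 60 to 192 counts, Ramp3 had the largest variation expected from counting alone among the members, 7.46% in WT and 9.39% in CB2 KO. Its observed coefficients of variation were larger, at 12.9% in WT and 50.65% in CB2 KO.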

Other observations

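For each member with a mean of at least 10 CPM, the gene with the nearest profile over the 6 libraries was taken from 9235 candidates, by the root mean square difference of centred log2 CPM. For Nmur1 it was Ccr2, a chemokine receptor gene, at 1117, 1050 and 1044 CPM in WT against 707, 784 and 663 CPM in CB2 KO (difference 0.086, where the profile of Nmur1 itself spreads by 0.347). For Ramp1 it was Cd164, which encodes a sialomucin (0.028), for Vipr2 Ski, a regulator of TGF-β signalling (0.036), and for Calcrl Tmem251 (0.051). For Tph1 it was Lilr4b (0.074), at 501, 388 and 343 CPM in WT against 489.6, 572 and 517.5 CPM in CB2 KO, and for Calca Mfsd8 (0.088). These genes were picked as the closest of many, and their likeness is a description of 6 libraries.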
